A study of Rattus norvegicus with 17 samples.

Results

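Neonatal rat ventricular myocytes kept with plasma taken after nocturnal hemodialysis (NHD) were set against the same kind of cells kept with control plasma. The comparison took the 6 arrays whose titles name plasma after NHD (NH in 5 of the titles) and the 3 arrays titled plasma CT, called control plasma in their descriptions, which is 9 of the 17 arrays of the series. All cultures were Sprague-Dawley ventricular myocytes given as 5 days old. The uremic plasma was added at 10%, and the share of control plasma is not given in the labels. The other arrays are 6 of cultures with plasma before NHD and 2 of cultures with phenylephrine (PE). They entered the fit only to estimate the spread, and give background values below. The labels call the arrays of a group biological replicates and do not say whether these are separate cultures or plasma donors. The p-values and standard errors thus measure only the spread between these samples, pooled over all 17 arrays of the 4 groups. That spread was widest in the before NHD group, with a root mean square SD over probe sets of 0.38. It was 0.24 after NHD and 0.21 with control plasma. The labels also give no day of culture, extraction or array run.

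Nocturnal hemodialysis is a long overnight form of dialysis that removes more of the solutes retained in kidney failure than conventional sessions do, and patients with kidney failure often develop an enlarged left ventricle. Neonatal ventricular myocytes are a common model of growth of heart muscle cells. They leave the cell cycle soon after birth and turn from glucose to fatty acids as their main fuel, and in culture they can still be driven towards growth, division or stress by factors in the medium. The values are log2 expression values, so a difference of 1 is a doubling.

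Arrays from the cells carried the defining transcripts of heart muscle at high levels in both groups. Cardiac troponin T (Tnnt2) read 13.48 to 13.65 (median 13.54) on the after NHD arrays and 13.54, 13.49 and 13.55 on the control arrays, and cardiac actin (Actc1) read 13.92 to 14.01 (median 13.95) and 14.02, 13.95 and 14.11. None of 23 measured leukocyte and macrophage markers and none of 11 neural and Schwann cell markers passed the test in either direction. Their mean levels were low, at 5.97 and 6.17. Among all genes with a mean level of 5.77 to 6.32, 3.4% passed as higher and 9.9% as lower, so few calls were to be found there. Markers of fibroblasts and of smooth muscle were brighter, at mean levels of 8.88 and 9.35, and some passed, as given below. The spread of values over an array (its SD over all probe sets) was 2.24 and 2.25 on control replicates 1 and 3, 2.32 on control replicate 2 and 2.32 to 2.34 on the 6 after NHD arrays. It thus differed between the after NHD arrays and 2 of the 3 control arrays, and its part in the results was looked at in a model that holds array SD as a covariate and with control replicate 2 alone. After NHD replicate 4 stood apart from the other 5 on the leading principal component of all 17 arrays (45.7% of the variance), at 15.15 against 32.4 to 37.2. The same replicate differed from before NHD replicate 4 with an SD of 0.21, smaller than that of any pair of arrays within a group (0.24 or more). Without after NHD replicate 4, 8347 probe sets passed the test described below, against 8238 with it, and 9301 without both arrays numbered 4. The labels do not say whether these 2 arrays share a culture or plasma.

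The difference between after NHD and control plasma reached a large part of the genes. Of 14506 genes, 2428 (16.7%) were higher and 2360 (16.3%) lower after NHD at an adjusted p under 0.05 (limma, Benjamini-Hochberg adjustment), together 33.0%. Over all 29214 probe sets, 8238 (28.2%) passed. All 6 after NHD arrays lay above all 3 control arrays in 2684 genes (18.5%) and below them in 2837 (19.6%). The genes that passed differed by a median of 0.70 on the log2 scale, and 826 rose and 468 fell at least 2-fold. Since every list below is read against a background of about 16% in each direction, a share near that value is not a result about the list. This background depends on the level of the genes. Over 10 bins by mean level, the share higher ran from 0.76% to 29.1% (24.9% in the brightest bin) and the share lower from 9.9% to 22.9%. For bright lists, such as complex I (mean level 11.36) and the sarcomere (12.08), the contrast with 16.7% is thus larger than that with genes of similar level. The list shares were not tested against genes of the same level. The median difference over all genes was -0.07.

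**Figure D1:**
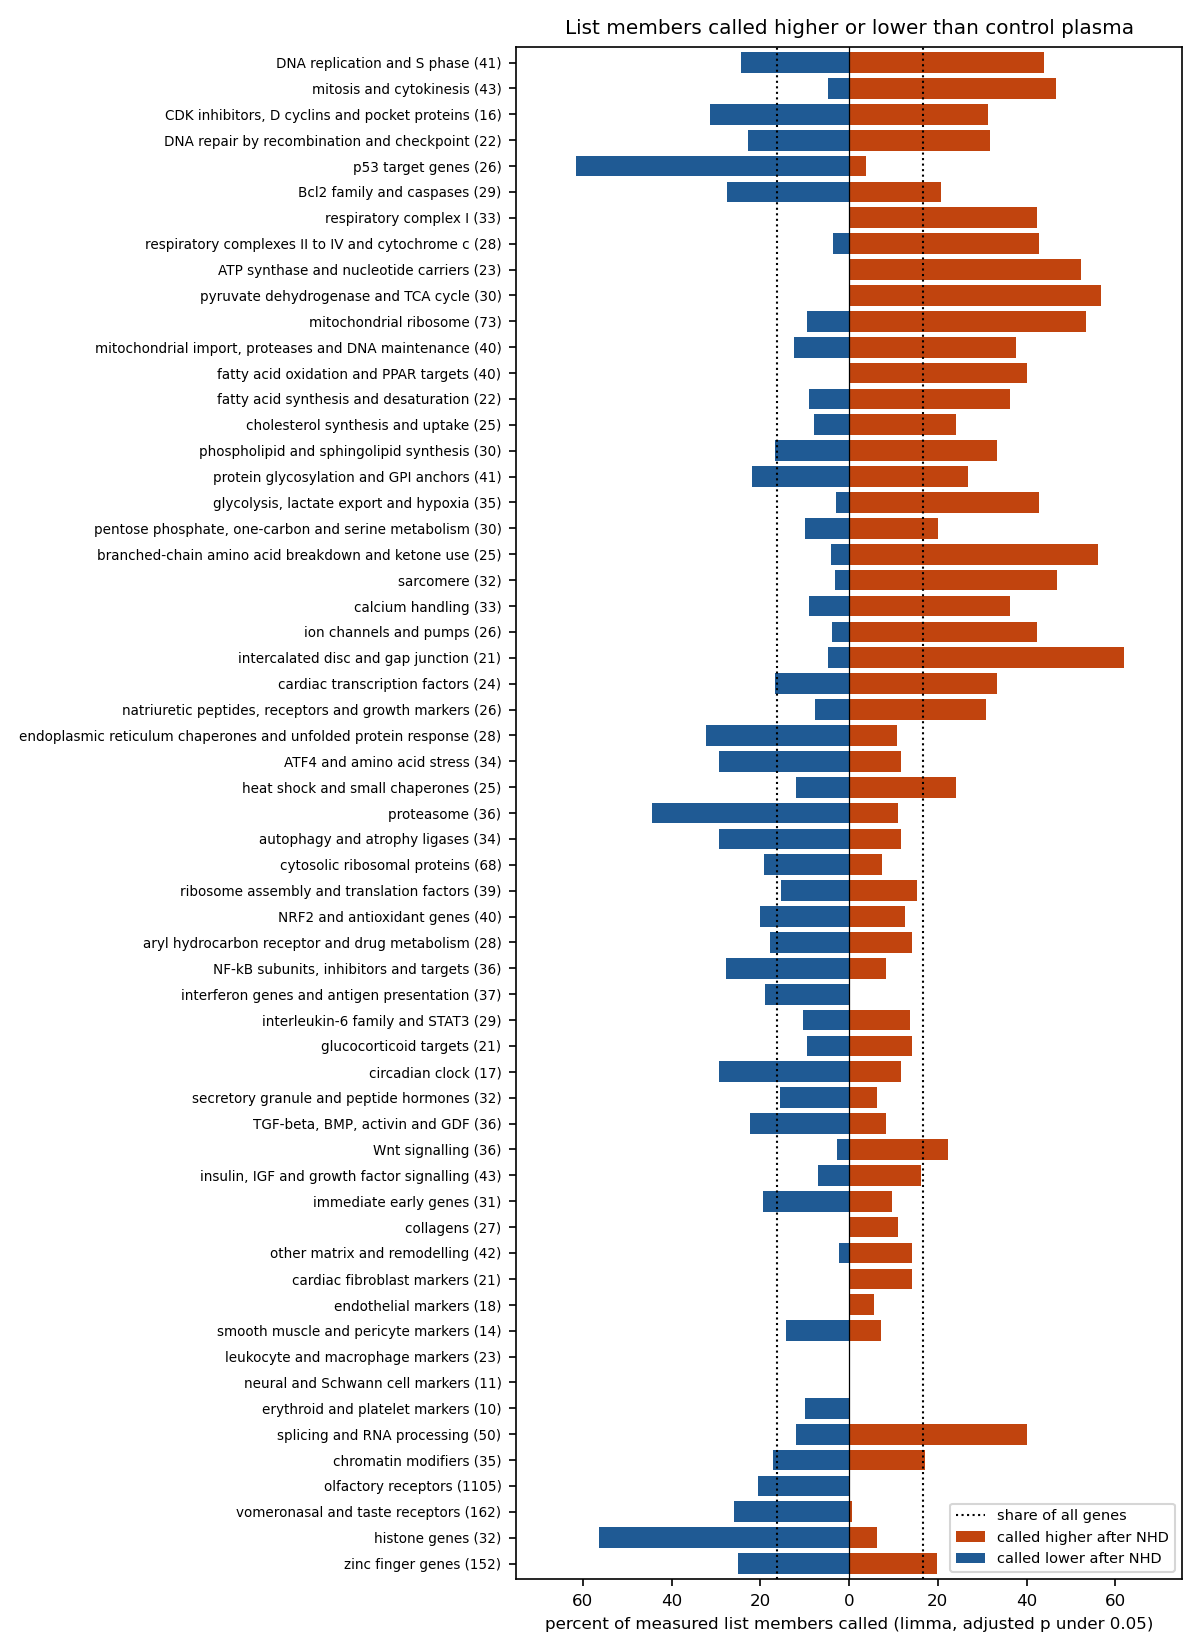
Share of the measured members of each list (number in parentheses) that passed the test higher (right) or lower (left) in after NHD than in control plasma cultures, in percent. Dotted lines mark the shares of all genes, 16.7% higher and 16.3% lower; p53 target genes, histone genes and proteasome genes reach furthest to the left, and intercalated disc, TCA cycle and branched-chain amino acid genes furthest to the right.

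The list with the highest share of decreases held target genes of p53, the transcription factor that halts division and can start cell death after damage. Of 26 measured targets, 16 fell (61.5% against 16.3% of all genes) and 1 rose, with a median difference of -0.95. Gdf15, a secreted stress cytokine, read 8.85 to 9.50 (median 9.10) on the after NHD arrays and 12.82, 12.70 and 12.74 on the control arrays. All 6 after NHD arrays lay far below all 3 control arrays, and the gene fell by 3.62 ± 0.61 on the log2 scale (adjusted p = 0.000821), or 12.3-fold. Mdm2, the ligase that degrades p53, read 9.45 to 9.96 (median 9.71) after NHD and 11.52, 11.61 and 11.40 with control plasma. It fell by 1.81 ± 0.29 (adjusted p = 0.00061) and the groups did not overlap. Bax, which opens the outer mitochondrial membrane in cell death, read 8.49 to 8.97 (median 8.63) and 10.93, 10.46 and 10.75, again without overlap, and fell by 2.04 ± 0.32 (adjusted p = 0.000578). Ddias, which protects against cell death after DNA damage, fell by 3.21 ± 0.50, Tp53inp1 by 1.80 ± 0.29, the growth arrest gene Gadd45a by 1.79 ± 0.35, and the death receptor Fas by 1.67 ± 0.36. Aen, Ppm1d, Phlda3, Gadd45b, Zmat3, Pmaip1, Ei24, Ccng1 and Bbc3 also fell. Sesn1, which restrains mTORC1, was the exception and rose by 1.0 ± 0.33. In a bulk culture fewer cells of a type and less RNA per cell cannot be told apart. Sesn1 did not pass without control replicate 1 or 3 or after NHD replicate 1 or 2 (adjusted p = 0.0607 to 0.129). Bbc3 and Sesn1 did not pass with array SD in the model.

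The inhibitors of cyclin-dependent kinases moved in different directions. Cdkn1a (p21), itself a p53 target, read 11.42 to 11.84 (median 11.62) after NHD and 13.39, 13.42 and 13.25 with control plasma. Every after NHD array was below every control array, and the gene fell by 1.72 ± 0.22 (adjusted p = 0.000416). Cdkn1c (p57), which holds cells out of the cycle during heart development, fell by 2.06 ± 0.42, from 10.33, 10.57 and 10.18 to 7.93 to 8.60 (median 8.31). Rb1, the retinoblastoma protein that keeps E2F silent, fell by 1.17 ± 0.24. Cdkn2c (p18) rose by 1.69 ± 0.29 and the pocket protein gene Rbl2 by 1.09 ± 0.36. The D cyclin genes, whose products start the cycle in answer to growth factors, rose too, Ccnd1 by 0.82 ± 0.23, Ccnd2 by 0.60 ± 0.13 and Ccnd3 by 0.96 ± 0.17. Cdkn1b (p27), at a difference of -0.02 (adjusted p = 0.943), and Cdkn2a, at 0.24 (adjusted p = 0.24), did not pass. In all, 5 of 16 genes of this list rose and 5 fell. Rbl2 did not pass without control replicate 1 or 3 or after NHD replicate 1, 2, 3 or 5 (adjusted p = 0.0503 to 0.136), and Ccnd1 did not pass without control replicate 1 (adjusted p = 0.0524). Rbl2 and Ccnd1 did not pass with array SD in the model. The number of CDK inhibitor and cyclin genes that rose was 3 without control replicate 1 and 3 with array SD in the model.

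Genes of the Bcl2 family and the caspases were split. Of 29 measured genes of the Bcl2 family and the caspases, 8 fell and 6 rose, Bax of the p53 targets among those that fell. Apaf1, the scaffold on which caspase-9 is activated, fell by 1.90 ± 0.25, from 10.22, 10.31 and 10.22 in control cultures to 8.02 to 8.69 (median 8.38) after NHD, without overlap. The inhibitors of apoptosis Birc3 and Birc2 fell by 1.59 ± 0.27 and 1.45 ± 0.20. Cflar, which blocks caspase-8, rose by 1.10 ± 0.28, Bok by 0.93 ± 0.18 and the mitophagy receptor gene Bnip3 by 0.83 ± 0.23. Members on both sides of the decision to die were thus among those that fell and those that rose. Bnip3 did not pass without control replicate 2 (adjusted p = 0.0708). Cflar and Bnip3 did not pass with array SD in the model. The number of Bcl2 and caspase genes that fell was 5 without control replicate 1 and 5 with array SD in the model, and the number that rose was 2 with array SD in the model.

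Genes of mitosis and cytokinesis rose. Of 43 measured, 20 rose (46.5% against 16.7% of all genes) and 2 fell, with a median difference of 0.56. Top2a, the topoisomerase that untangles chromosomes before they separate, read 9.77 to 10.57 (median 10.44) on the after NHD arrays and 6.08, 5.92 and 5.83 on the control arrays. It had the largest increase of all named genes, 4.40 ± 0.59 on the log2 scale or 21-fold (adjusted p = 0.000416). The lowest of the after NHD arrays was replicate 4, and it was still far above the control arrays. Ccnb2, a B cyclin that drives entry into mitosis, read 9.25 to 10.79 (median 10.32) and 7.16, 7.39 and 7.38, a rise of 2.92 ± 0.40 (adjusted p = 0.000416). Its partner kinase Cdk1 read 8.21 to 9.25 (median 9.13) and 7.09, 7.11 and 7.20, a rise of 1.85 ± 0.42 (adjusted p = 0.00424). For both genes the groups did not overlap. The kinesin Kif20a rose by 3.87 ± 0.52, the cyclin Ccna2 by 3.18 ± 0.55, the kinase Pbk by 3.08 ± 0.48, the polo-like kinase Plk1 by 2.98 ± 0.44 and Ect2, which sets up the cleavage furrow, by 2.76 ± 0.44. Aurkb, the kinase of the chromosomal passenger complex, rose by 1.75 ± 0.25, Ccnb1 by 1.69 ± 0.40 and Kif23 by 2.28 ± 0.36. The 2 members that fell were Cdc25c, a phosphatase that activates Cdk1 (-1.36 ± 0.26), and the spindle checkpoint gene Mad2l1 (-0.93 ± 0.29). Several core members did not pass, among them Birc5 (survivin) at 0.16 (adjusted p = 0.607), Aurka at 0.56 (adjusted p = 0.0653), Bub1 at -0.44 (adjusted p = 0.372) and Ndc80 at -0.68 (adjusted p = 0.185). Mad2l1 did not pass without control replicate 1, 2 or 3 (adjusted p = 0.0578 to 0.0939). Cdk1, Ccnb1 and Mad2l1 did not pass with array SD in the model. The number of mitosis genes that rose was 12 with array SD in the model, and the number that fell was 1 without control replicate 1, 2 or 3 and 1 with array SD in the model.

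The promoters of such genes often hold a CCAAT box, bound by NF-Y, and a cell cycle homology region, through which they are silenced outside G2 and mitosis. The sequences upstream of the start site of Top2a, Ccnb2 and Cdk1 are shown as chosen examples of mitosis genes that rose. Several others, among them Kif20a and Ccna2, rose more than Ccnb2 and Cdk1. CCAAT and TTTGAA are in capitals on either strand (ATTGG and TTCAAA are the same letters read on the other strand). The sequences are from RefSeq, assembly GRCr8, at chr10:84473094-84473223 (minus strand), chr8:79981659-79981808 (minus strand) and chr20:19265163-19265292 (plus strand). Each runs 5′ to 3′ on the gene's strand and ends at the base before the start site.
Top2a: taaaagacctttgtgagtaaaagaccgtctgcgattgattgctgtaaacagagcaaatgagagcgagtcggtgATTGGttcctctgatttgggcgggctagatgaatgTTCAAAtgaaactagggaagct
Ccnb2: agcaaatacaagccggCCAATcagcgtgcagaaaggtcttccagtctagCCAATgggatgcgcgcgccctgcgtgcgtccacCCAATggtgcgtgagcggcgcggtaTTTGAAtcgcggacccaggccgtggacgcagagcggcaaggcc
Cdk1: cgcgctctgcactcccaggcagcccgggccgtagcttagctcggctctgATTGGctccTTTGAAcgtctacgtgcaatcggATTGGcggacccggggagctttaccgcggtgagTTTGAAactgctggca
All 3 hold both motifs within 150 bases of the start site. In the 250 bases before the start sites, TTTGAA or TTTAAA on either strand (TTTAAA is its own reverse complement) occurred in 25.3% of all 27457 promoters and CCAAT in 34.3%, and both together in 8.88%. Of the 16 mitosis genes that rose and have a promoter in the table, 14 (87.5%) held both. Of the 20 that did not rise, 9 (45.0%) held both. A match of letters is a description of the sequence and not a bound site.

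Genes of DNA replication split into a larger group that rose and a smaller one that fell. Of 41 measured, 18 rose and 10 fell, so that 24.4% fell against 16.3% of all genes and 43.9% rose against 16.7%. Rrm2, the regulated subunit of ribonucleotide reductase, read 9.81 to 11.60 (median 11.32) after NHD and 7.69, 8.12 and 7.72 with control plasma. It rose by 3.25 ± 0.47 (adjusted p = 0.000446), with replicate 4 the lowest after NHD array and no overlap. The DNA polymerase delta subunit gene Pold2 rose by 2.63 ± 0.48, the primase gene Prim1 by 2.33 ± 0.32, and the helicase genes Mcm5 and Mcm6 by 2.14 ± 0.43 and 1.56 ± 0.27. The ligase gene Lig1 rose by 1.52 ± 0.26 and the transcription factor gene E2f1 by 0.90 ± 0.26. In the other direction, Gins4 of the replicative helicase fell by 1.47 ± 0.26, the clamp loader subunit gene Rfc4 by 1.22 ± 0.22, the thymidylate synthase gene Tyms by 1.18 ± 0.28 and Mcm7 by 0.99 ± 0.17. Subunits of one helicase ring thus moved apart, since Mcm2, Mcm5 and Mcm6 rose and Mcm7 fell. Pcna, the sliding clamp, differed by 0.15 (adjusted p = 0.5) and did not pass. E2f1 did not pass without control replicate 1 or 3 (adjusted p = 0.0757 to 0.0785). E2f1 and Tyms did not pass with array SD in the model. The number of replication genes that rose was 11 with array SD in the model.

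Genes of recombination and the DNA damage checkpoint were split too, with 7 of 22 higher and 5 lower. Hus1, a subunit of the checkpoint clamp that signals to ATR, read 9.99 to 10.15 (median 10.07) and 6.66, 7.01 and 6.73 and rose by 3.27 ± 0.47 (adjusted p = 0.000445), without overlap. Rad52 rose by 1.68 ± 0.37. Fancd2 of the Fanconi pathway fell by 1.49 ± 0.35, Brca1 by 1.01 ± 0.27 and the kinase gene Atm by 0.71 ± 0.13. Histone genes fell in 18 of 32 members (56.2%) and rose in 2, with a median difference of -0.52. H2ac25 fell by 3.14 ± 0.34 and H4c14 rose by 2.47 ± 0.49. Histone genes are near copies of each other, and the signal of a probe set can come from several, so single members are uncertain. Rad52, Fancd2 and Brca1 did not pass with array SD in the model. The number of repair genes that rose was 2 without control replicate 1, 4 without control replicate 2 or after NHD replicate 2 and 1 with array SD in the model, and the number that fell was 2 with array SD in the model. The number of histone genes that fell was 9 with array SD in the model.

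**Figure D2:**
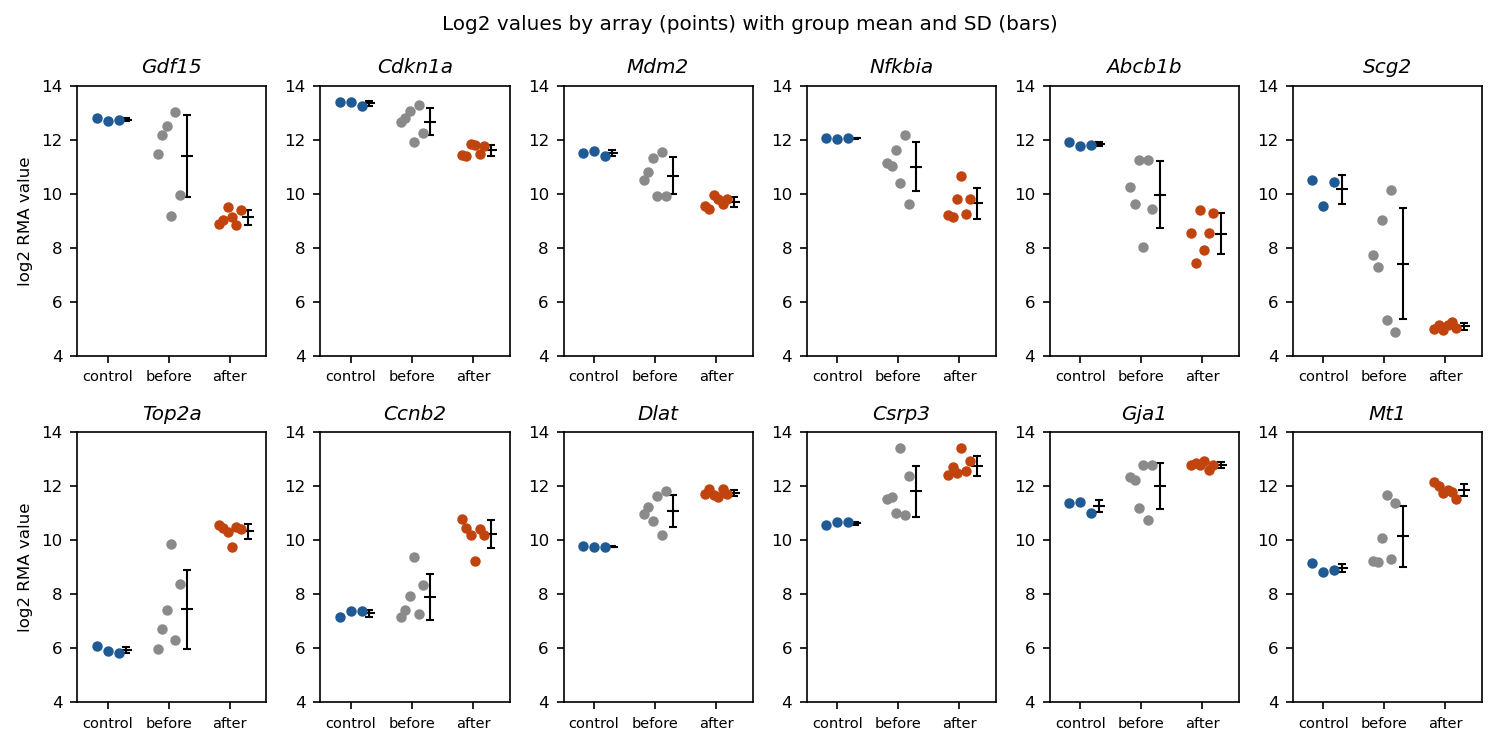
Log2 values of 12 genes on each array of the control plasma, before NHD and after NHD groups (3, 6 and 6 points), with the group mean and SD as bars, on a shared axis from 4 to 14. In every panel the after NHD points lie wholly above or wholly below the control points, while the before NHD points are more widely spread.

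Genes of mitochondrial energy production rose, and few fell. Of 30 measured genes of the pyruvate dehydrogenase complex and the TCA cycle, 17 rose (56.7%) and 0 fell, with a median difference of 0.38. The 30 include cytosolic enzymes, among them Mdh1 and Aco1. Mdh1, the cytosolic malate dehydrogenase of the malate-aspartate shuttle, read 12.04 to 12.97 (median 12.78) after NHD and 10.18, 10.29 and 10.31 with control plasma, a rise of 2.42 ± 0.33 (adjusted p = 0.000416). Dlat, the core acetyltransferase of pyruvate dehydrogenase, read 11.60 to 11.90 (median 11.73) and 9.78, 9.74 and 9.77, a rise of 1.99 ± 0.25 (adjusted p = 0.000416). In both genes each after NHD array lay above each control array. Pdk3, a kinase that shuts pyruvate dehydrogenase down, rose by 1.71 ± 0.28, Suclg1 of succinyl-CoA ligase by 1.60 ± 0.32, the cytosolic aconitase gene Aco1 by 1.54 ± 0.21, and citrate synthase (Cs) by 0.73 ± 0.12. A catalytic subunit and an inhibitory kinase of the same complex thus rose side by side. Idh1, at -0.92 (adjusted p = 0.277), and Me1, at -0.98 (adjusted p = 0.0536), were lower on average and did not pass.

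Genes of the respiratory chain rose by smaller amounts. Of complex I, 14 of 33 subunit genes rose and 0 fell. Of complexes II to IV with cytochrome c, 12 of 28 rose and 1 fell. Of ATP synthase with the nucleotide carriers, a list that also counts the creatine kinase gene Ckb, 12 of 23 rose and 0 fell. Median differences were 0.32, 0.17 and 0.35. Uqcrc2, a core subunit of complex III, read 12.39 to 12.97 (median 12.76) and 11.14, 11.24 and 11.16 and rose by 1.55 ± 0.22 (adjusted p = 0.000416), without overlap. In complex I, Ndufa3 rose by 1.13 ± 0.23, Ndufab1 by 1.13 ± 0.19, Ndufa10 by 1.07 ± 0.31 and the core subunit gene Ndufs1 by 0.94 ± 0.16. Brain-type creatine kinase (Ckb) rose by 2.02 ± 0.33, the outer membrane channel gene Vdac2 by 1.45 ± 0.18 and Atp5f1d of ATP synthase by 1.06 ± 0.18. The subunit Cox8b rose by 1.24 ± 0.45, and the assembly factor gene Cox11 fell by 0.58 ± 0.13. Ndufa10 did not pass without control replicate 1 or 3 (adjusted p = 0.0811 to 0.0914), and Cox8b did not pass without control replicate 1, 2 or 3 or after NHD replicate 1, 2, 3, 5 or 6 (adjusted p = 0.051 to 0.13). Ndufa10 and Cox8b did not pass with array SD in the model. The number of complex I genes that rose was 7 with array SD in the model. The complex I median of 0.32 was 0.18 with array SD in the model. The number of complex II to IV genes that rose was 5 without control replicate 1 or 3, 7 without control replicate 2 or after NHD replicate 1 or 2 and 4 with array SD in the model. The complex II to IV median of 0.17 was 0.05 with each array scaled to the same SD. The number of ATP synthase genes that rose was 6 with array SD in the model. The ATP synthase median of 0.35 was 0.22 with each array scaled to the same SD.

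Mitochondrial ribosomal proteins, which build the machine that translates the mitochondrial genome, rose in 39 of 73 genes (53.4%) and fell in 7, with a median difference of 0.38. The gene listed as mrpl11 read 9.89 to 10.58 (median 10.30) after NHD and 6.66, 7.44 and 6.97 with control plasma, a rise of 3.26 ± 0.52 (adjusted p = 0.000627). Mrpl23 rose by 2.52 ± 0.44, Mrpl19 by 2.43 ± 0.39, Mrpl48 by 2.11 ± 0.32 and Mrpl15 by 1.88 ± 0.32. The lowest member, Mrps18b, fell by 0.79 ± 0.16. Import and protease genes rose in 15 of 40 and fell in 5. Mipep, the peptidase that trims imported proteins, read 9.0 to 9.91 (median 9.64) and 5.85, 6.09 and 5.63 and rose by 3.67 ± 0.63 (adjusted p = 0.00087), without overlap. Timm22 of the inner membrane translocase rose by 1.83 ± 0.45, and Dnm1l, which divides mitochondria, by 1.03 ± 0.17. Of the genes for copying mitochondrial DNA that are named here, the helicase gene Twnk fell by 1.21 ± 0.19, the polymerase subunit gene Polg2 by 1.11 ± 0.22 and the single-strand binding protein gene Ssbp1 by 0.69 ± 0.14, and Tfam, which differed by 0.30 (adjusted p = 0.187) and Polg, which differed by 0.07 (adjusted p = 0.649), did not pass. Timm22 did not pass with array SD in the model. The number of mitochondrial ribosome genes that rose was 19 with array SD in the model. The number of import genes that rose was 6 with array SD in the model.

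Cytosolic ribosomal protein genes did not follow them. Of 68 measured, 5 rose and 13 fell, 19.1% lower against 16.3% of all genes. The median was -0.11, and no difference was past 0.61 in either direction. All after NHD arrays lay below all control arrays in 33 of the 68, where 19.6% of all genes did so. They lay above in 10 of the 68 (18.5% of all genes). Genes of ribosome assembly and translation rose in 6 and fell in 6 of 39 (15.4% each, near the shares of all genes). Polr1c and Polr1b of RNA polymerase I rose by 1.27 ± 0.26 and 1.06 ± 0.35, and Wdr12 and Eif2b1 fell by 1.07 ± 0.28 and 0.99 ± 0.16. Splicing and RNA processing genes rose in 20 of 50 (40%) and fell in 6. Snrpf rose by 1.80 ± 0.35, Hnrnpa1 by 1.78 ± 0.25, Snrpa by 1.57 ± 0.25 and Hnrnpa2b1 by 1.21 ± 0.19. Polr1b did not pass without control replicate 1 or 3 or after NHD replicate 4 or 6 (adjusted p = 0.0536 to 0.143). Polr1b and Wdr12 did not pass with array SD in the model. The number of cytosolic ribosome genes that fell was 3 without control replicate 1 or 3, 4 without control replicate 2 and 3 with array SD in the model, and the number that rose was 2 without control replicate 1, 3 without control replicate 3 and 0 with array SD in the model. The cytosolic ribosome median of -0.11 was -0.24 with each array scaled to the same SD and -0.17 with array SD in the model. The number of ribosome assembly genes that rose was 2 without control replicate 3, 3 without control replicate 1 and 1 with array SD in the model, and the number that fell was 11 without after NHD replicate 4 and 2 with array SD in the model. The number of splicing genes that rose was 11 without control replicate 1, 12 without control replicate 3 and 8 with array SD in the model, and the number that fell was 1 without control replicate 1, 3 without control replicate 3 and 2 with array SD in the model.

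Genes of fuel use rose along several routes. Of 40 measured genes of fatty acid oxidation and PPAR targets, 16 rose (40%) and 0 fell, with a median difference of 0.53. Ucp2, an inner membrane carrier, read 12.13 to 12.74 (median 12.54) after NHD and 10.48, 10.81 and 10.55 with control plasma and rose by 1.89 ± 0.38 (adjusted p = 0.00215), without overlap. Decr1, needed to burn unsaturated fatty acids, rose by 1.81 ± 0.44, the dehydrogenase gene Hadh by 1.76 ± 0.60, the very long-chain dehydrogenase gene Acadvl by 1.29 ± 0.29, and Plin2, which coats lipid droplets, by 1.09 ± 0.33. The nuclear receptor gene Ppara rose by 0.98 ± 0.26 and Cpt1b, the muscle form of the enzyme that admits fatty acids to mitochondria, by 0.74 ± 0.21. PPAR targets that did not pass included Pdk4 at 0.05 (adjusted p = 0.916), Cd36 at 0.01 (adjusted p = 0.989) and Angptl4 at -0.93 (adjusted p = 0.436). Hadh did not pass without control replicate 1, 2 or 3 or after NHD replicate 1, 2, 3, 5 or 6 (adjusted p = 0.0517 to 0.126), and Plin2 did not pass without control replicate 1, 2 or 3 (adjusted p = 0.054 to 0.0708). Decr1, Hadh, Acadvl, Plin2, Ppara and Cpt1b did not pass with array SD in the model. The number of fatty acid oxidation genes that rose was 9 without control replicate 3, 10 without control replicate 1 and 2 with array SD in the model.

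Breakdown of branched-chain amino acids and use of ketones was among the lists with the highest share of increases. Of 25 measured genes, 14 rose (56%) and 1 fell, with a median of 0.61. Bdh1, which interconverts the ketone bodies, read 8.61 to 11.27 (median 10.94) and 8.17, 8.15 and 8.15 and rose by 2.33 ± 0.49 (adjusted p = 0.00279). Its groups did not overlap, but after NHD replicate 4 was close to the control arrays and the other 5 were well above. Aldh6a1 of valine breakdown read 10.12 to 11.32 (median 10.82) and 8.88, 8.77 and 8.93 and rose by 1.96 ± 0.27 (adjusted p = 0.000416). Bckdhb of the branched-chain dehydrogenase rose by 1.77 ± 0.31, Pcca of propionyl-CoA carboxylase by 1.41 ± 0.25, and Bckdk, the kinase that inhibits the dehydrogenase, by 1.29 ± 0.22. Mmaa, which handles vitamin B12 for methylmalonyl-CoA mutase, fell by 1.52 ± 0.21, while Mmachc, which processes the vitamin when it enters the cell, rose by 3.60 ± 0.63. Oxct1, the rate-limiting enzyme of ketone use, differed by 0.24 (adjusted p = 0.185). The number of branched-chain and ketone genes that rose was 7 with array SD in the model.

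Glycolysis genes rose as well, in 15 of 35 (42.9%), and 1 fell. Slc16a3, the transporter that exports lactate, read 10.23 to 11.45 (median 11.32) after NHD and 8.54, 8.63 and 8.47 with control plasma. It rose by 2.51 ± 0.29 (adjusted p = 0.000377), with no overlap. The phosphofructokinase genes Pfkl and Pfkm rose by 1.95 ± 0.37 and 1.81 ± 0.37, hexokinase 2 (Hk2) by 1.54 ± 0.52, and Aldoc by 1.36 ± 0.49. The glucose transporter genes Slc2a1, at -0.25 (adjusted p = 0.667), and Slc2a4, at -0.14 (adjusted p = 0.827), did not pass, and neither did the hypoxia gene Vegfa at 0.28 (adjusted p = 0.0831). Pentose phosphate and one-carbon genes were near the background, with 6 of 30 higher and 3 lower. Hk2 and Aldoc did not pass without control replicate 1, 2 or 3 or after NHD replicate 1, 2, 3 or 5 (adjusted p = 0.0633 to 0.142). Hk2 and Aldoc did not pass with array SD in the model. The number of glycolysis genes that rose was 6 with array SD in the model. The number of pentose phosphate genes that rose was 3 with array SD in the model, and the number that fell was 1 without control replicate 1 or 2 and 1 with array SD in the model.

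Lipid synthesis changed at particular enzymes. Of 22 genes of fatty acid synthesis and desaturation 8 rose and 2 fell. The desaturase gene Fads1 read 8.12 to 10.53 (median 10.02) after NHD and 7.49, 7.97 and 7.57 with control plasma and rose by 2.09 ± 0.41 (adjusted p = 0.00184). After NHD replicate 4 was nearest to the control arrays, and the groups did not overlap. Fads2 rose by 1.69 ± 0.17, the elongase gene Elovl6 by 1.49 ± 0.30, and Acacb, whose product malonyl-CoA restrains fatty acid entry into mitochondria, by 1.43 ± 0.38. Among 25 cholesterol genes 6 rose and 2 fell. Abca1, which exports cholesterol, read 6.28 to 8.47 (median 7.34) and 9.51, 9.86 and 9.39 and fell by 2.17 ± 0.47 (adjusted p = 0.00314), with a wide spread after NHD and no overlap. Squalene epoxidase (Sqle) rose by 1.02 ± 0.31 and Srebf2, the regulator of the pathway, by 0.88 ± 0.24. Acacb and Srebf2 did not pass without control replicate 1 or 3 (adjusted p = 0.0507 to 0.0578), and Sqle did not pass without control replicate 1, 2 or 3 (adjusted p = 0.0613 to 0.0713). Acacb, Sqle and Srebf2 did not pass with array SD in the model. The number of fatty acid synthesis genes that fell was 1 without control replicate 1, 2 or 3 and 0 with array SD in the model. The number of cholesterol genes that rose was 1 without control replicate 1, 2 without control replicate 3 and 0 with array SD in the model.

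The 2 enzymes that make phosphatidylserine moved apart. Ptdss2 read 9.68 to 10.57 (median 10.33) after NHD and 6.69, 6.80 and 6.96 with control plasma and rose by 3.45 ± 0.53 (adjusted p = 0.000543), while Ptdss1 fell by 1.09 ± 0.21. In sugar nucleotide synthesis, phosphomannose isomerase (Mpi) read 10.83 to 11.15 (median 10.96) and 7.89, 8.60 and 7.82 and rose by 2.88 ± 0.42, while the next enzyme, phosphomannomutase 1 (Pmm1), read 8.87 to 9.16 (median 8.97) and 10.85, 10.94 and 10.66 and fell by 1.84 ± 0.27. None of these groups overlapped. Pigq and Pigh of the complex that starts GPI anchors rose by 2.92 ± 0.40 and 1.63 ± 0.45, the mannosyltransferase gene Alg3 rose by 2.20 ± 0.43 and Gmppb fell by 1.08 ± 0.18. Over the lists, 10 of 30 phospholipid genes rose and 5 fell, and 11 of 41 glycosylation and GPI genes rose and 9 fell. Pigh did not pass without control replicate 1 (adjusted p = 0.074). Pigh did not pass with array SD in the model. The number of phospholipid genes that rose was 5 without control replicate 1 and 4 with array SD in the model, and the number that fell was 2 without control replicate 1 or 2, 3 without control replicate 3 or after NHD replicate 3 and 1 with array SD in the model. The number of glycosylation genes that rose was 6 without control replicate 1 and 6 with array SD in the model.

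**Figure D3:**
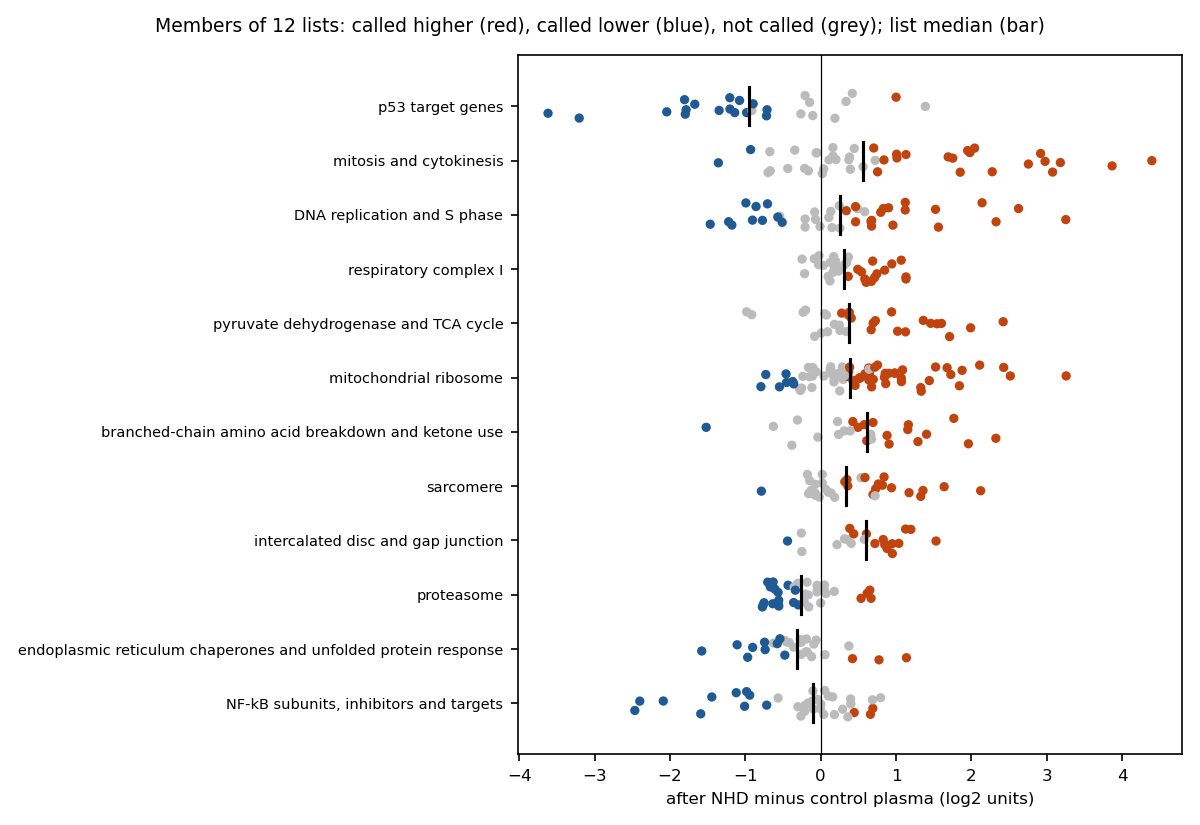
Differences between after NHD and control plasma (log2 units) for the members of 12 lists, each point 1 gene. Red points passed the test as higher, blue points as lower, grey points did not pass, and the black bar is the list median, lowest for p53 target genes (-0.95) and highest for branched-chain amino acid and ketone genes (0.61).

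Among genes of the contractile apparatus, 15 of 32 rose (46.9%) and 1 fell, with a median of 0.33. Csrp3, the muscle LIM protein of the Z-disc, read 12.42 to 13.41 (median 12.65) after NHD and 10.58, 10.67 and 10.67 with control plasma. It rose by 2.12 ± 0.40 (adjusted p = 0.00147), and every after NHD array exceeded every control array. Mybpc3, myosin-binding protein C of the thick filament, read 11.63 to 12.06 (median 11.85) and 10.67, 10.80 and 10.56 and rose by 1.17 ± 0.19 (adjusted p = 0.000647), again without overlap. The atrial light chain gene Myl7 rose by 1.64 ± 0.32, the cardiac myosin kinase gene Mylk3 by 1.36 ± 0.32 and Tmod1, which caps thin filaments, by 1.33 ± 0.16. The adult-type myosin heavy chain gene Myh6 rose by 0.84 ± 0.14 and the fetal-type Myh7 by 0.35 ± 0.09. The adult cardiac troponin I gene Tnni3 rose by 0.77 ± 0.16. Skeletal actin (Acta1), part of the fetal programme in hypertrophy, was the member that fell, from 13.27, 13.02 and 13.28 to 11.92 to 12.64 (median 12.49), by 0.79 ± 0.23 (adjusted p = 0.0187). Titin (Ttn), at -0.07 (adjusted p = 0.653), Tnnt2, at 0.02 (adjusted p = 0.853), and Actc1, at -0.07 (adjusted p = 0.477), did not pass. Myh7 did not pass without control replicate 3 (adjusted p = 0.0549), and Acta1 did not pass without control replicate 1 or 3 (adjusted p = 0.0754 to 0.0794). Mylk3, Myh7 and Acta1 did not pass with array SD in the model. The number of sarcomere genes that rose was 9 with array SD in the model. The sarcomere median of 0.33 was 0.22 with each array scaled to the same SD.

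Genes of calcium handling and of ion channels and pumps had more increases than decreases. Of 33 calcium genes 12 rose and 3 fell, and of 26 ion channel and pump genes 11 rose and 1 fell. Ryr2, the release channel of the sarcoplasmic reticulum, read 11.70 to 12.34 (median 11.98) after NHD and 10.34, 10.53 and 10.36 with control plasma and rose by 1.60 ± 0.29 (adjusted p = 0.00105), without overlap. Atp2b4, a calcium pump of the cell membrane, rose by 1.88 ± 0.35, S100a1, which acts on Ryr2 and the calcium pump, by 1.85 ± 0.34, and the pump gene Atp2a2 (SERCA2) by 0.56 ± 0.16. Trdn, triadin, which anchors the release complex, fell from 10.49, 9.77 and 10.53 to 8.26 to 8.88 (median 8.71), by 1.62 ± 0.36 (adjusted p = 0.00368), and the channel subunit gene Cacna2d1 fell by 1.38 ± 0.31. Among channels, Abcc8 of the ATP-sensitive potassium channel rose by 1.93 ± 0.39, Kcnd3 of the transient outward current by 1.75 ± 0.27, Kcnj5 by 1.52 ± 0.32, the sodium channel subunit gene Scn4b by 1.37 ± 0.46 and Kcnj2 of the inward rectifier by 1.25 ± 0.25. Phospholamban (Pln), at 0.20 (adjusted p = 0.125), and the exchanger gene Slc8a1, at 0.24 (adjusted p = 0.127), did not pass. Atp2a2 did not pass without control replicate 1 or 3 (adjusted p = 0.059 to 0.0596), and Scn4b did not pass without control replicate 1, 2 or 3 or after NHD replicate 1, 2, 3 or 5 (adjusted p = 0.0551 to 0.106). Atp2a2, Trdn, Cacna2d1 and Scn4b did not pass with array SD in the model. The number of calcium genes that fell was 0 with array SD in the model. The number of ion channel genes that rose was 6 without control replicate 1 or 3, 7 without after NHD replicate 1 or 2 and 6 with array SD in the model.

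The intercalated disc, where neighbouring myocytes are joined, had the highest share of increases of all lists, 13 of 21 genes (61.9%), with 1 lower. Gja1 (connexin 43), the main gap junction protein of the ventricle, read 12.60 to 12.96 (median 12.79) on the after NHD arrays and 11.38, 11.42 and 11.02 on the control arrays. It rose by 1.53 ± 0.35 (adjusted p = 0.00482), and the groups did not overlap. Beta-catenin (Ctnnb1) read 11.40 to 11.55 (median 11.51) and 10.12, 10.53 and 10.22 and rose by 1.20 ± 0.17 (adjusted p = 0.000416). The integrin gene Itga7 rose by 1.13 ± 0.22, vinculin (Vcl) by 1.04 ± 0.14, and Tjp1 by 0.95 ± 0.16. The virus receptor gene Cxadr, which also sits at the disc, fell by 0.44 ± 0.12. N-cadherin (Cdh2) differed by 0.36 (adjusted p = 0.0722). Cxadr did not pass without control replicate 1 or 3 (adjusted p = 0.05 to 0.0529). Gja1 and Cxadr did not pass with array SD in the model. The number of intercalated disc genes that rose was 8 with array SD in the model.

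Cardiac transcription factors and hormone receptors were mixed. Gata4, a factor of heart development and growth, read 11.62 to 12.03 (median 11.87) after NHD and 10.29, 10.62 and 10.19 with control plasma, a rise of 1.46 ± 0.30 (adjusted p = 0.00226) without overlap. Prox1 rose by 1.26 ± 0.29, Hopx by 1.21 ± 0.34 and Irx4 by 1.15 ± 0.30, while Zfpm2, a partner of Gata4, fell by 0.64 ± 0.16 and Hand2 by 0.60 ± 0.15. In all 8 of 24 rose and 4 fell. The natriuretic peptide genes Nppa and Nppb, common markers of hypertrophy, did not pass, at 0.05 (adjusted p = 0.652) and 0.12 (adjusted p = 0.738). Nppa lay near the top of the scale in both groups (13.81 to 13.88 (median 13.83) against 13.79, 13.79 and 13.80). Corin, the protease that activates the peptide, rose by 2.13 ± 0.55. The receptor gene Npr1 fell by 1.16 ± 0.24 and Npr2 rose by 1.66 ± 0.35. Adra1a, an alpha-1 adrenergic receptor, read 9.72 to 10.23 (median 9.98) and 7.57, 7.82 and 7.35 and rose by 2.40 ± 0.39 (adjusted p = 0.000681), and Adra1b rose by 1.88 ± 0.46. Hopx did not pass without control replicate 3 (adjusted p = 0.0657), and Irx4 did not pass without control replicate 1 (adjusted p = 0.0634). Hopx, Irx4, Zfpm2, Hand2 and Adra1b did not pass with array SD in the model. The number of transcription factor genes that rose was 3 without control replicate 1 or 3 and 2 with array SD in the model, and the number that fell was 1 with array SD in the model.

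Protein quality control leaned the other way. Of 28 chaperones and unfolded protein response genes of the endoplasmic reticulum 9 fell (32.1%) and 3 rose. Dnajb9, a co-chaperone induced through Xbp1, read 9.37 to 9.57 (median 9.46) after NHD and 11.08, 10.98 and 11.09 with control plasma and fell by 1.58 ± 0.24 (adjusted p = 0.000508), without overlap. Pdia4 fell by 1.11 ± 0.39 and the sensor kinase gene Eif2ak3 (PERK) by 0.97 ± 0.18. The main chaperone gene Hspa5 (BiP), at -0.26 (adjusted p = 0.111), did not pass. Of 34 ATF4 and amino acid stress genes 10 fell and 4 rose. The largest decrease was that of Gdf15 (-3.62), which is also counted among the p53 targets and in the TGF-beta list. Cebpg fell by 1.53 ± 0.32, the glycine transporter gene Slc6a9 by 1.28 ± 0.28, Trib3 by 1.12 ± 0.25 and Ddit3 (CHOP) by 1.0 ± 0.30. Atf4 itself differed by -0.12 (adjusted p = 0.651) and Asns by -0.48 (adjusted p = 0.0764). Pdia4 did not pass without control replicate 1, 2 or 3 or after NHD replicate 2, 4, 5 or 6 (adjusted p = 0.0546 to 0.131), and Ddit3 did not pass without control replicate 1 or 3 (adjusted p = 0.0562 to 0.0759). Pdia4, Slc6a9 and Ddit3 did not pass with array SD in the model. The number of endoplasmic reticulum genes that fell was 4 with array SD in the model, and the number that rose was 1 with array SD in the model. The number of ATF4 genes that fell was 6 with array SD in the model, and the number that rose was 0 with array SD in the model.

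Proteasome genes fell in 16 of 36 (44.4%) and rose in 4, by amounts under 1 on the log2 scale. Psma2 of the core particle read 9.51 to 9.78 (median 9.72) and 10.50, 10.42 and 10.43 and fell by 0.75 ± 0.17 (adjusted p = 0.0039), without overlap. Psme4, Psmb4 and Psma5 fell by 0.76 ± 0.21, 0.67 ± 0.14 and 0.64 ± 0.17. Psmd8 fell by 0.77 ± 0.23 and Psma6 by 0.70 ± 0.14 on the probe sets used, while a further probe set of each gene did not pass. That of Psmd8 differed by -0.411, and that of Psma6 by 0.215, in the other direction. Psmb6 rose by 0.67 ± 0.20 and Psmd12 by 0.65 ± 0.16. Autophagy genes and atrophy ligases fell in 10 of 34 and rose in 4. Sqstm1 (p62), which delivers cargo to autophagosomes, fell by 1.01 ± 0.24, Atg12 by 0.87 ± 0.19, and the muscle ligase gene Trim63 (MuRF1) by 0.64 ± 0.17. Fbxo32 (atrogin-1) differed by -0.16 (adjusted p = 0.788). Heat shock genes were split, 6 of 25 higher and 3 lower. Hspb3, a small chaperone of muscle, rose by 2.19 ± 0.50 and Hspb1 fell by 0.78 ± 0.15. Psme4 did not pass without control replicate 3 (adjusted p = 0.0509), and Psma5 did not pass without control replicate 1 (adjusted p = 0.0571). Psmd8 did not pass without control replicate 1 or 2 (adjusted p = 0.0642 to 0.0663), and Psmb6 did not pass without control replicate 1 or 3 (adjusted p = 0.0847 to 0.122). Psme4, Psma5, Psmd8, Psmb6, Psmd12, Sqstm1, Trim63 and Hspb3 did not pass with array SD in the model. The number of proteasome genes that fell was 8 with array SD in the model, and the number that rose was 1 without control replicate 1 or 3, 2 without control replicate 2 and 0 with array SD in the model. The number of autophagy genes that fell was 4 with array SD in the model, and the number that rose was 2 without control replicate 1 or 3 and 1 with array SD in the model. The number of heat shock genes that rose was 3 with array SD in the model.

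Genes of NF-kB, the factor that drives inflammatory transcription, included several of the larger decreases. Of 36 subunits, inhibitors and targets 10 fell (27.8% against 16.3% of all genes) and 3 rose. Nfkbia, the inhibitor that NF-kB induces as its own brake, read 9.15 to 10.65 (median 9.53) after NHD and 12.06, 12.03 and 12.08 with control plasma and fell by 2.40 ± 0.43 (adjusted p = 0.000999). Nfkb2, the p100 subunit, read 8.35 to 9.31 (median 8.48) and 11.17, 11.02 and 11.14 and fell by 2.47 ± 0.44 (adjusted p = 0.00103). In both genes all after NHD arrays were below all control arrays. Cyclooxygenase 2 (Ptgs2) read 8.79 to 9.73 (median 9.27) and 11.55, 10.94 and 11.46 and fell by 2.09 ± 0.45, without overlap. Birc3 and Birc2 belong to this list too, and the subunit gene Rela fell by 0.94 ± 0.18. The classical cytokine targets did not pass, among them Il6 at 0.16 (adjusted p = 0.717), Ccl2 at -0.57 (adjusted p = 0.524) and Cxcl1 at 0.06 (adjusted p = 0.801). Ptgs2 did not pass with array SD in the model. The number of NF-kB genes that fell was 6 with array SD in the model.

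The 2 promoters below are shown because Nfkbia and Nfkb2 lead the decrease. Capitals mark the NF-kB consensus. The sequences are from RefSeq, assembly GRCr8, chr6:78597073-78597152 (minus strand) and chr1:255108294-255108373 (plus strand), 5′ to 3′ on the gene's strand and up to the start site.
Nfkbia: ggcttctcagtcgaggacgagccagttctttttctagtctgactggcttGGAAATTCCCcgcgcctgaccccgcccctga
Nfkb2: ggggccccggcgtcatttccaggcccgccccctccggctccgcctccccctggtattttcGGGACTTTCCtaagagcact
The consensus, searched on both strands of 250 bases, was in 3.52% of all promoters. It was in 4 of the 8 genes of the list that fell and have a promoter in the table (50.0%), and in 8 of the 20 that did not fall (40.0%).

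Genes of interferon response and antigen presentation fell in 7 of 37 (18.9%, near the 16.3% of all genes) and rose in 0. RT1-CE5, listed as a class I histocompatibility gene, read 7.51 to 8.16 (median 7.91) and 11.01, 11.15 and 10.91 and fell by 3.15 ± 0.44 (adjusted p = 0.000434), and the peptide transporter gene Tap1 fell by 1.48 ± 0.28. RT1 genes are near copies of each other, so that the single member is uncertain. Interferon-stimulated genes did not pass, among them Usp18 at 2.43 (adjusted p = 0.0825), Mx2 at 1.35 (adjusted p = 0.18) and Isg15 at 0.05 (adjusted p = 0.903). Usp18 read 5.16 to 9.36 (median 7.51) after NHD against 4.69, 5.63 and 5.03, so its after NHD arrays ranged widely and overlapped the control arrays. In the interleukin-6 family and STAT3 list 4 of 29 rose (13.8%) and 3 fell (10.3%), both below the shares of all genes. The lectin gene Reg3g fell by 2.58 ± 0.47, the cytokine gene Lif by 0.98 ± 0.22, and the repressor gene Bcl6 rose by 1.64 ± 0.40. Lif and Bcl6 did not pass with array SD in the model. The number of interferon and antigen genes that fell was 4 without control replicate 3 and 4 with array SD in the model, and the number that rose was 3 without after NHD replicate 4. The number of interleukin-6 genes that rose was 2 with array SD in the model.

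Among stress and detoxification genes, those of the metallothioneins rose. Mt1 and Mt2A encode small proteins that bind zinc and copper, and are induced by metals and glucocorticoids. Mt1 read 11.52 to 12.17 (median 11.84) after NHD and 9.15, 8.85 and 8.92 with control plasma and rose by 2.89 ± 0.46 (adjusted p = 0.000636). Mt2A read 11.94 to 12.66 (median 12.46) and 10.30, 10.17 and 10.45 and rose by 2.10 ± 0.49 (adjusted p = 0.00493). Neither overlapped. Of the other glucocorticoid targets, Fkbp5, at 0.41 (adjusted p = 0.0892), and Tsc22d3, at 0.17 (adjusted p = 0.35), did not pass, and 3 of 21 rose and 2 fell, the metallothioneins included. Srxn1, which restores peroxiredoxins, read 6.22 to 6.89 (median 6.57) and 8.75, 8.31 and 8.68 and fell by 2.02 ± 0.48 (adjusted p = 0.00575), and its regulator Nfe2l2 (NRF2) fell by 0.92 ± 0.14. The NRF2 targets Nqo1, at 0.13 (adjusted p = 0.906), and Hmox1, at 0.06 (adjusted p = 0.922), did not pass. The NRF2 list counted 5 higher and 8 lower of 40, with a median of -0.02. Mt2A and Srxn1 did not pass with array SD in the model. The number of glucocorticoid genes that fell was 0 without control replicate 1, 2 or 3, 1 without after NHD replicate 3 or 5 and 0 with array SD in the model. The number of NRF2 genes that fell was 3 without control replicate 1, 4 without control replicate 3 and 1 with array SD in the model, and the number that rose was 3 without control replicate 1 or 3, 8 without after NHD replicate 4 and 1 with array SD in the model.

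The promoters of both metallothionein genes are shown because they carry the increase, with the core of the metal response element (TGCACNC or TGCGCNC, either strand) in capitals. They are from RefSeq, assembly GRCr8, chr19:10832976-10833155 and chr19:10838709-10838888, both on the minus strand, 5′ to 3′ on the gene's strand and up to the start site.
Mt1: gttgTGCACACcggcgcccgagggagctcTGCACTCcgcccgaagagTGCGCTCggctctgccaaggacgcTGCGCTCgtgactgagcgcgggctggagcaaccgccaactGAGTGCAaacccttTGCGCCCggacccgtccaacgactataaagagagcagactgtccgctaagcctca
Mt2A: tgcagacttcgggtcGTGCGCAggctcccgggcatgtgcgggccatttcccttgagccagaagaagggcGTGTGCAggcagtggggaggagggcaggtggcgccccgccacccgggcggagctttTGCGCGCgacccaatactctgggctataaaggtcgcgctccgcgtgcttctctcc
The core occurred 6 times in these 180 bases of Mt1 and 3 times in those of Mt2A. It was in 21.2% of all promoters of 250 bases.

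The drug efflux pump gene Abcb1b (a rodent P-glycoprotein) read 7.45 to 9.41 (median 8.55) after NHD and 11.91, 11.77 and 11.83 with control plasma and fell by 3.31 ± 0.57 (adjusted p = 0.000846), or 9.89-fold. The after NHD arrays spread over a wide range, all below the control arrays. Its near copy Abcb1a fell by 0.53 ± 0.16. The aryl hydrocarbon receptor gene Ahr, a sensor of several retained solutes, fell by 1.0 ± 0.25, while its target genes Cyp1a1, at 0.35 (adjusted p = 0.153), and Cyp1b1, at 0.62 (adjusted p = 0.479), did not pass. The prostaglandin transporter gene Slco2a1 rose by 1.91 ± 0.52. Of 28 genes in this list 4 rose (14.3%) and 5 fell (17.9%), near the shares of all genes. Abcb1a did not pass without control replicate 1 (adjusted p = 0.153), and Slco2a1 did not pass without control replicate 1 or 3 (adjusted p = 0.0529 to 0.0639). Abcb1a and Slco2a1 did not pass with array SD in the model. The number of aryl hydrocarbon receptor genes that fell was 3 without control replicate 1 and 3 with array SD in the model, and the number that rose was 2 without control replicate 1 or 3 and 2 with array SD in the model.

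Single signalling genes changed by large amounts within lists in which most genes did not pass. The shares below stand beside 16.7% higher and 16.3% lower of all genes. Scg2, secretogranin II of peptide secretory granules, had the largest decrease of the named genes. It read 4.95 to 5.25 (median 5.09) after NHD, near the floor of the scale, and 10.52, 9.55 and 10.44 with control plasma, and fell by 5.08 ± 0.82 (adjusted p = 0.000643). Cga, the shared alpha chain of pituitary glycoprotein hormones, fell by 3.55 ± 0.65. Of 32 secretory genes 5 fell in all (15.6%) and 2 rose (6.25%). Fst, the activin antagonist follistatin, read 7.64 to 9.12 (median 8.27) and 11.07, 11.11 and 10.83 and fell by 2.65 ± 0.44 (adjusted p = 0.000757), the BMP target Id2 fell by 1.87 ± 0.35 and the ligand gene Bmp7 rose by 2.16 ± 0.38. In the TGF-beta, BMP and activin list 3 of 36 rose (8.3%) and 8 fell (22.2%), Gdf15 among those that fell. Igf1 read 8.96 to 10.07 (median 9.57) and 7.33, 7.34 and 7.25 and rose by 2.24 ± 0.59 (adjusted p = 0.0107), without overlap. Rptor of mTORC1 rose by 1.46 ± 0.28. Of 43 insulin, IGF and growth factor genes 7 rose (16.3%) and 3 fell (7.0%). In Wnt signalling 8 of 36 genes rose (22.2%) and 1 fell (2.8%). Wnt5a rose by 1.31 ± 0.26 and the receptor gene Lrp6 by 1.18 ± 0.24, and the kinase gene Gsk3b fell by 0.70 ± 0.19. Igf1 and Gsk3b did not pass with array SD in the model. The number of secretory genes that fell was 3 without control replicate 1 and 2 with array SD in the model, and the number that rose was 1 without control replicate 1 and 0 with array SD in the model. The number of TGF-beta genes that rose was 1 with array SD in the model. The number of insulin and IGF genes that rose was 3 with array SD in the model, and the number that fell was 1 without control replicate 2 and 0 with array SD in the model. The number of Wnt genes that rose was 5 without control replicate 1 and 5 with array SD in the model, and the number that fell was 3 without after NHD replicate 4.

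Some of the largest changes were in genes outside the functional lists. Lynx1, which modulates nicotinic receptors, rose by 3.39 ± 0.57 (adjusted p = 0.000785). Tbc1d19 read 8.55 to 9.48 (median 9.23) after NHD and 5.57, 6.0 and 6.13 with control plasma and rose by 3.25 ± 0.50. Clcc1, a chloride channel of the endoplasmic reticulum, read 10.0 to 10.29 (median 10.18) and 6.80, 7.43 and 6.99 and rose by 3.08 ± 0.48. The prostaglandin E synthase gene Ptges2 rose by 3.03 ± 0.45 and the deubiquitinase gene Zup1 by 2.96 ± 0.48. In each of these genes every after NHD array lay above every control array. Among the decreases, the kinase genes Mok and Pask fell by 3.64 ± 0.62 and 3.36 ± 0.68, the latter from 11.70, 11.76 and 11.57 to 7.55 to 9.0 (median 8.35). Gnptg, a subunit of the enzyme that tags lysosomal hydrolases, read 8.46 to 8.78 (median 8.55) and 11.29, 11.26 and 11.27 and fell by 2.70 ± 0.48 (adjusted p = 0.00108). The small GTPase gene Rab39a fell by 3.11 ± 0.59. Several of the largest decreases were in genes known from sensory or germ cells, the vomeronasal receptor genes Vom1r73 (-3.70 ± 0.52) and Vom1r79 (-3.18 ± 0.48), the trace amine receptor gene Taar1 (-2.89 ± 0.72), the hair cell phosphatase gene Ptprq (-3.03 ± 0.59), the egg coat gene Zp2 (-2.98 ± 0.42) and the sperm genes Eqtn (-2.70 ± 0.41) and Spata1 (-2.64 ± 0.44). Vom1r73 read 4.59 to 5.64 (median 5.06) after NHD, near the floor of the scale, and 8.90, 8.48 and 9.08 with control plasma, and all 3 control arrays lay above all 6 after NHD arrays. Taar1 did not pass with array SD in the model.

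Immediate early genes fell in 6 of 31 (19.4%, near the 16.3% of all genes) and rose in 3 (9.7%, below the 16.7% of all genes). Klf10 fell by 1.90 ± 0.40 and Nr4a2 by 1.66 ± 0.32, while the phosphatase genes Dusp5 and Dusp4, brakes on MAP kinases, rose by 1.07 ± 0.27 and 1.03 ± 0.25. Fos, at 0.52 (adjusted p = 0.0871), and Egr1, at -0.31 (adjusted p = 0.593), did not pass. Of the circadian clock genes 5 of 17 fell and 2 rose. Nr1d2 fell by 1.09 ± 0.18, Tef by 0.82 ± 0.16 and Dbp by 0.72 ± 0.17, and Npas2 rose by 0.97 ± 0.18. Chromatin modifiers rose in 6 and fell in 6 of 35 (17.1% each, near the shares of all genes). Dnmt3a was higher by 0.84 ± 0.16 and Kat5 lower by 0.96 ± 0.15. Zinc finger genes rose in 30 and fell in 38 of 152, with Zfp458 lower by 3.17 ± 0.40. Without control replicate 2 the balance turned, to 34 higher and 27 lower. Dusp5 and Dbp did not pass with array SD in the model. The number of immediate early genes that fell was 3 with array SD in the model. The number of clock genes that fell was 3 without control replicate 1, 2 or 3 and 2 with array SD in the model. The number of chromatin genes that rose was 2 without control replicate 1 or 3 and 2 with array SD in the model, and the number that fell was 3 without control replicate 1 or 2 and 2 with array SD in the model. The number of zinc finger genes that fell was 25 without control replicate 1 and 18 with array SD in the model, and the number that rose was 15 without control replicate 1, 19 without control replicate 3 and 9 with array SD in the model.

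Matrix genes and markers of other cells passed the test in small shares. Collagen genes rose in 3 of 27 and fell in 0, other matrix genes rose in 6 of 42 and fell in 1, and fibroblast markers rose in 3 of 21 and fell in 0. All these shares are below the background of 16.7% higher. Col1a1, at 0.78 (adjusted p = 0.421), Postn, at 0.78 (adjusted p = 0.539), and Pdgfra, at 0.38 (adjusted p = 0.632), did not pass. The fibroblast markers that rose were S100a4 (1.35 ± 0.24), Pdpn (0.99 ± 0.21) and Fbln1 (0.68 ± 0.23). Over the whole list the mean level ran from 8.07 to 9.72 on the after NHD arrays and from 8.63 to 8.71 on the control arrays. Endothelial markers rose in 1 of 18, the receptor gene Kdr (1.58 ± 0.49), with a mean level of 6.33 to 6.84 against 6.55 to 6.62. Smooth muscle and pericyte markers fell in 2 of 14 and rose in 1, and erythroid and platelet markers fell in 1 of 10. Fbln1 did not pass without control replicate 1, 2 or 3 or after NHD replicate 1, 2, 3 or 5 (adjusted p = 0.0504 to 0.115), and Kdr did not pass without control replicate 1 or 3 (adjusted p = 0.0823 to 0.107). Fbln1 and Kdr did not pass with array SD in the model. The number of matrix genes that rose was 2 without control replicate 1 or 3, 3 without control replicate 2 or after NHD replicate 1 and 1 with array SD in the model. The number of smooth muscle genes that fell was 0 without control replicate 1 and 0 with array SD in the model.

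**Figure D4:**
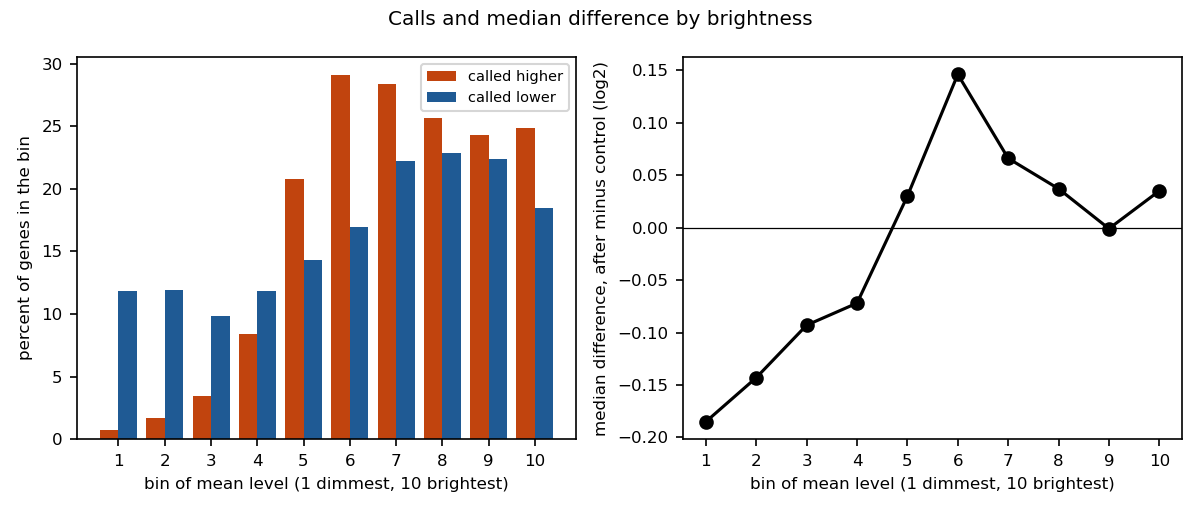
Genes in 10 bins of equal size by their mean level on the 9 arrays, from dim (1) to bright (10). Left, percent of the genes in each bin that passed the test higher (red) or lower (blue) after NHD; right, the median difference, which is -0.19 in the dimmest bin and 0.04 in the brightest.

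Among genes with low values, decreases outnumbered increases. In the dimmest of 10 bins of genes, 0.76% were higher and 11.9% lower, with a median difference of -0.19. In the brightest bin 24.9% were higher and 18.5% lower, with a median of 0.04. Olfactory receptors, which are known from sensory tissue and had a mean level of 4.91 here, fell in 226 of 1105 (20.5%) and rose in 0, and vomeronasal and taste receptors fell in 42 of 162 and rose in 1. The median of the olfactory receptors was -0.31 with the 3 control arrays, -0.07 with control replicate 2 as the only control array and -0.09 with array SD in the model. With control replicate 2 alone, the median of the histone genes was -0.33 against -0.52, and the median of the p53 targets was -0.96 against -0.95, that of mitosis 0.47 against 0.56, that of the TCA cycle 0.36 against 0.38 and that of the intercalated disc 0.57 against 0.61. In the model with array SD the medians of the p53 targets, mitosis, the TCA cycle and the intercalated disc were -0.90, 0.47, 0.28 and 0.56. Other medians also moved in that model, that of DNA replication from 0.26 to 0.14, of complex I from 0.32 to 0.18, of mitochondrial import from 0.15 to 0.06 and of the mitochondrial ribosome from 0.38 to 0.26. Of 30 lists with a median of at least 0.2 in size, 29 kept their sign in it, and that of the fibroblast markers went from 0.37 to -0.34. The setting with control replicate 2 alone was chosen after the data were seen. In it 0 probe sets passed (limma, Benjamini-Hochberg adjustment), and 5174 had an unadjusted p under 0.05. The number of olfactory receptor genes that fell was 29 without control replicate 1, 100 without control replicate 3, 423 without control replicate 2 and 13 with array SD in the model. The olfactory receptor median of -0.31 was -0.19 with a second quantile normalization, -0.19 with cyclic loess and -0.09 with array SD in the model. The number of vomeronasal and taste receptor genes that fell was 15 without control replicate 1, 23 without control replicate 3 and 11 with array SD in the model.

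**Figure D5:**
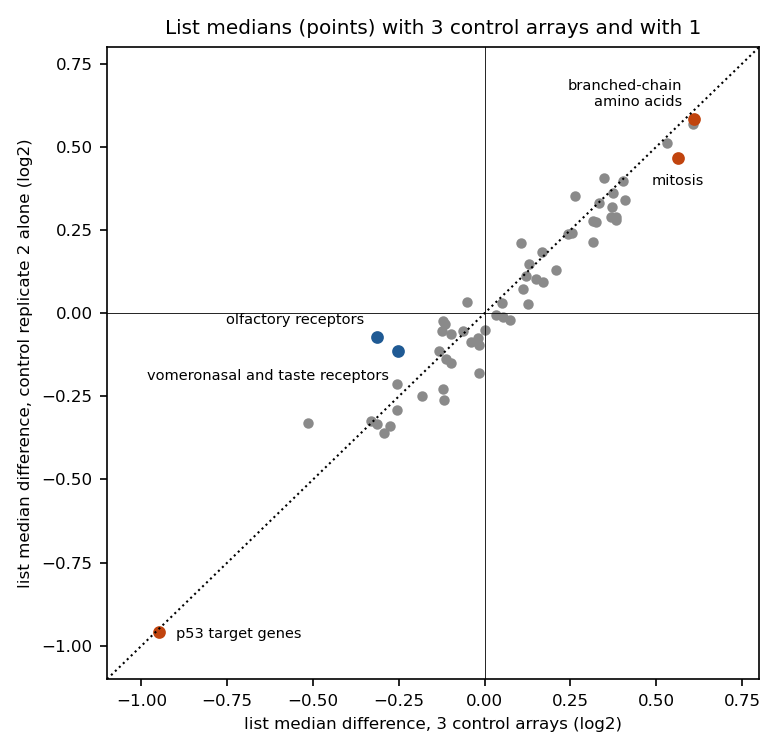
Median difference of each list (points, log2 units) with the 3 control arrays (horizontal) and with control replicate 2 as the only control array (vertical); the dotted line marks equal values. Olfactory receptors (-0.31 and -0.07) and vomeronasal and taste receptors lie off the line, as do the histone genes (-0.52 and -0.33, grey), and p53 target genes (-0.95 and -0.96) lie on it.

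The before NHD and PE groups give a background for these differences, with the reservation that all 3 comparisons share the control arrays. Against the same control arrays 847 genes (5.84%) passed before NHD and 3427 (23.6%) with PE. The before NHD arrays were more widely spread than the after NHD arrays, with a root mean square SD over probe sets of 0.38 against 0.24. For Gdf15 the before NHD arrays ran from 9.17 to 13.05, for Top2a from 5.98 to 9.88 and for Dlat from 10.21 to 11.82, so that in each gene some of them lay near the control arrays and others near the after NHD arrays. Tested directly, after NHD against before NHD, 70 genes (0.483%) passed. Without the arrays numbered 4 of both groups, which was tried only once the values were known, 1642 genes passed, 704 of them higher after NHD. Among the 70 were Top2a, higher by 2.88 (adjusted p = 0.0289), Ccnb2, by 2.31 (adjusted p = 0.0289), Plk1, by 2.22 (adjusted p = 0.0289), Cdkn2c, by 1.29 (adjusted p = 0.0333), and Cdkn1a, at -1.04 (adjusted p = 0.0289). Gdf15, at -2.26 (adjusted p = 0.0611), and Dlat, at 0.66 (adjusted p = 0.106), did not pass. The direct test did not pair the samples. Of the after NHD arrays, the one with the same number was closest to before NHD replicates 2, 3 and 4 (SD of the difference 0.41, 0.44 and 0.21). For before NHD replicates 1, 5 and 6 another after NHD array was closer. Whether the numbers pair these samples is not given in the labels. PE, an alpha-1 agonist used to enlarge these cells, gave 4.82 for Top2a, -2.72 for Gdf15, -1.97 for Cdkn1a and 1.52 for Dlat against control plasma, beside 4.40, -3.62, -1.72 and 1.99 after NHD. Directly compared, 196 genes (1.35%) differed between after NHD and PE.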

How the data were processed

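RNA of 5-day cultures was read on 1 array per sample. The deposited log2 values are the output of RMA, which the authors ran before deposit according to the submitters' processing notes. This method corrects background, gives the probe intensities of all arrays the same distribution and then joins the probes of a set into 1 value. The joined values still differed in SD between arrays, as given above. A change shared by most genes is thus removed, and very low and very high values are squeezed. Which release of RMA and which probe sets were used is not given in the sources used here.

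Of 29214 probe sets, 15310 had 1 symbol in the platform annotation, 323 several and 13581 none, and 15279 were updated through the Entrez number with a RefSeq table (GRCr8). Where a gene had several probe sets, the brightest on average was used (14506 genes). Every probe set was tested in 1 fit of all 17 arrays and 4 groups by limma 3.58.1 under R 4.3.3 (functions lmFit and eBayes; 13 residual and 3.32 prior degrees of freedom), after NHD minus control, with two-sided p-values adjusted by Benjamini-Hochberg over all probe sets and a threshold of 0.05. Differences are given with the standard error of the fit. In simulated data of 29214 probe sets in the same layout, 75% of 100 changes of 1 and 21% of 100 of 0.5 were recovered. Of the unchanged probe sets 3 were called. No other probe set was changed, and all groups were given the same spread. The real comparison called 8238 probe sets, so these shares do not give its recovery. The number of arrays limits the precision.

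The 55 lists of genes, the 4 families taken by symbol pattern, and the genes named were chosen with earlier results of these data known. Named were the 20 largest increases and decreases past the threshold with a settled symbol, up to 5 largest called members of each list, and members whose function defines a list, whether they passed or not. Promoters came from a RefSeq table, and 250 bases before the start site were searched. Alternatives changed the samples, the filter on dim probe sets, the normalization, the variance model, a replicate block and the fold minimum, and left out each array in turn.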

Additional observations from a re-analysis of the deposited data

Results flagged for a closer look

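Of 299 sets of values over the 6 after NHD arrays, 35 had 1 array far from the other 5, by a gap to the nearest over 0.625 of the whole range (Dixon's 95% limit for 6 samples), where chance gives about 1 in 20. In 32 of the 35 the array was replicate 4. On the leading principal component it was at 15.15, against 32.4 to 37.2 on the other arrays. Among cell cycle and replication genes replicate 4 was the lowest for Ccnd3 at 11.14 (others 11.34 to 11.42), Top2a at 9.77 (others 10.33 to 10.57), Cdk1 at 8.21 (others 9.01 to 9.25), Kif20a at 8.88 (others 9.77 to 10.29), Ccna2 at 9.69 (others 10.30 to 10.41), Aurkb at 8.50 (others 9.06 to 9.29), Ccnb1 at 9.53 (others 10.52 to 10.86), Kif23 at 8.27 (others 8.77 to 9.04), Mad2l1 at 8.54 (others 9.06 to 9.18), Bub1 at 8.58 (others 9.07 to 9.34), Rrm2 at 9.81 (others 11.01 to 11.60) and Tyms at 9.98 (others 10.36 to 10.57). Among genes of metabolism replicate 4 was the lowest for Aco1 at 10.23 (others 10.55 to 10.66), Cs at 12.47 (others 12.80 to 12.95), Idh1 at 9.24 (others 10.88 to 11.68), Ucp2 at 12.13 (others 12.52 to 12.74), Plin2 at 9.92 (others 11.12 to 11.38), Acacb at 7.81 (others 8.83 to 9.23) and Pigq at 10.53 (others 10.95 to 11.16). It was also the lowest for Irx4 at 9.84 (others 10.69 to 11.03), Psma2 at 9.51 (others 9.69 to 9.78), Id2 at 9.20 (others 9.82 to 10.18), Wnt5a at 7.73 (others 8.27 to 8.56), Zp2 at 5.45 (others 5.70 to 5.81) and Kdr at 7.50 (others 8.43 to 8.93). Replicate 4 was the highest for Gadd45a at 10.56 (others 9.57 to 9.78), Twnk at 8.83 (others 8.11 to 8.37), Tfam at 9.29 (others 8.74 to 8.84), Cebpg at 10.62 (others 9.25 to 9.59), Bcl6 at 10.44 (others 9.56 to 9.59) and Eqtn at 7.34 (others 5.91 to 6.44). For Mmaa it was replicate 2, the highest at 8.75 (others 8.45 to 8.54). For Psmb4 it was replicate 1, the lowest at 10.07 (others 10.23 to 10.28). For Gnptg it was replicate 6, the highest at 8.78 (others 8.46 to 8.56). These sets share arrays and are not independent of each other. Before NHD replicate 4 differed from after NHD replicate 4 by less than any 2 arrays of 1 group did, and the labels do not say whether they share a culture or plasma.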

How the results depend on the processing

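Counts of probe sets called (8238 of 29214 tested, of which 3754 higher and 4484 lower) stayed within 1.5 times under 8 alternatives. They ran from 6530 with only the brighter probe sets (14607 tested) to 10313 with only the 9 arrays compared (29214 tested). With 1 probe set per gene 5005 of 14506 tested were called, 2489 of them lower. In both settings with fewer probe sets tested, the share called was above the 28.2% of the main fit. With array SD in the model the counts were 3015, 1517 higher and 1498 lower. With array weights they were 14916, 5904 and 9012. With at least 1.5-fold required, 5051 were called, 2434 lower. With control replicate 2 as the only control array, a setting chosen after seeing the data, 0 were called, 0 higher and 0 lower (5174 at an unadjusted p under 0.05). With 1 array left out the counts ran from 4547 to 8347, 2217 to 3788 higher and 2330 to 4559 lower, with 4547 without control replicate 1 and 5045 without control replicate 3. The replicate number as a block gave 9055 calls (4256 higher, 4799 lower). Deviations of same-numbered after NHD and control arrays correlated at -0.03, 0.00 and 0.03, so the numbers were not taken to pair after NHD with control samples. No named gene that passed changed direction under any of these alternatives. Calls of 70 of 248 named genes that passed were lost with array SD in the model and of 30 without control replicate 1.

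With 3 control arrays, differences of 0.5 can be missed, and a p that misses the threshold does not show that a gene was unchanged. Values close to the floor or the ceiling are compressed. The plasma share of the controls, the donors and the batches are not given in the labels, and their part in the results was not tested.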
